A study of Mus musculus with 8 samples.

Results

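The genes described here are 10 members of the machinery that carries a cell from G1 into S phase. They are the D-type cyclins Ccnd1, Ccnd2 and Ccnd3, their kinases Cdk4 and Cdk6, the E-type cyclins Ccne1 and Ccne2 with their kinase Cdk2, and the RB proteins Rb1 and Rbl2. They were taken by gene symbol from the 34478 genes of the deposited table, and all 10 were found. Expression was measured by RNA-seq in 4 primary murine PDAC cell lines, numbered #1, #3, #5 and #10 by the authors, with 1 DMSO library and 1 trametinib library per line, 8 libraries in all. The lines come from tumors of mice with the alleles Ptf1awt/Cre and Trp53loxP/loxP, in which Cre under the Ptf1a promoter deletes Trp53 in pancreatic cells, and every library of both groups shares the same genotype. Trametinib, an allosteric inhibitor of MEK (labelled MEKi), was given for 48 h at the IC50 of each line, and control cells received the solvent DMSO. The age of the mice and the concentrations used are not given in the labels, and neither is whether each line came from a different animal. The p-values for treatment thus rest on how the change with trametinib varied between these 4 lines.

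D-type cyclins bind and activate CDK4 and CDK6 in response to growth signals, and the MEK-ERK cascade is a well-known inducer of cyclin D1. The active kinases phosphorylate RB (Rb1) and its relative p130 (Rbl2), which otherwise hold E2F transcription factors and their target genes in check. Cyclin E with CDK2 completes this phosphorylation, and the E-type cyclin genes are themselves E2F targets. In quiescent cells, p130 with E2F4 and the MuvB core forms the DREAM complex, a repressor of cell cycle genes.

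Values are normalized counts, gene counts that the authors scaled so that libraries can be compared. They summed to between 30680091 and 36385719 per library. The spacing of low values put the libraries at about 29400000 to 46000000 reads, and the lowest value of any of the 10 genes, Ccne2 with trametinib in line #3, corresponded to about 138 reads. The change of a gene in a line was calculated as log2((trametinib + 1)/(DMSO + 1)). Genes with a mean of at least 10, 15888 in number, were tested in limma with a term for each cell line (the block). A gene was called when its p, adjusted by Benjamini-Hochberg over all of them, was under 0.05, and SE stands for the standard error of a log2 fold change. With earlier results of these data known, 9 genes were listed as a check of MAPK output. Of these, 8 were lower with trametinib in limma, against 25.6% of all genes tested. On the log2 scale they were led by the ETS factors Etv4, at -5.92 (SE 0.39, limma adjusted p = 0.000201), and Etv5, at -4.82 (SE 0.38, limma adjusted p = 0.000317). The remaining gene, Epha4, was not called but was higher in 4 of 4 lines, at 0.87 (limma adjusted p = 0.0504). The 5 epithelial markers, Krt8, Krt18, Krt19, Cdh1 and Epcam, summed to 207479 to 309789 normalized counts with DMSO and 99903 to 193613 with trametinib. The keratins Krt8, Krt18 and Krt19 were called lower, at -0.74, -0.82 and -0.66 on the log2 scale, whereas Cdh1 was not called, at -0.02 (limma adjusted p = 0.881), and was higher in 3 of 4 lines. Epcam was listed at 0 in both libraries of lines #1, #5 and #10 and at 10.4 and 3.75 in line #3. The 8 fibroblast markers summed to 94.9 to 366 normalized counts with DMSO and 440 to 1258 with trametinib. Col1a1 made up most of each trametinib sum and was higher in 4 of 4 lines (log2 fold change 3.60, limma adjusted p = 0.000872). Lum was at 0 in all 8 libraries and Col1a2 at no more than 4.29. Of 6 leukocyte markers, 5 were in the table and summed to 145 to 231 with DMSO and 227 to 509 with trametinib, with Ptprc, the defining one, at no more than 17.2. Csf1r of the same list was higher in 4 of 4 lines, from 1.05 to 46.9 with DMSO to 14.2 to 340 with trametinib (log2 fold change 2.83, limma adjusted p = 0.000697). The 3 endothelial markers summed to 14.5 to 47.3 and 25.9 to 70.3, and the 3 acinar markers in the table summed to 25.6 to 247 and 15.6 to 123. Of these, Cpa1 was at 0 in all 8 libraries and Cela1 was lower in 4 of 4 lines (log2 fold change -0.73, limma adjusted p = 0.0257). Trp53 was at 275 to 355 normalized counts with DMSO and 196 to 278 with trametinib. It was lower in 4 of 4 lines (log2 fold change -0.53, limma adjusted p = 0.0219). These counts do not check its deletion, since a count per gene does not show which exons were read. In bulk RNA, fewer cells of a type cannot be told apart from less RNA per cell, and the part of other cells in the results was not tested.

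With trametinib, 5 of the 10 genes were lower and 2 were higher in limma. The background over all genes tested was 25.6% lower and 27.3% higher. Ccnd1, Ccne1 and Ccne2 fell to between 11.6% and 40.9% of their DMSO level in the 4 lines, Cdk2 and Cdk4 fell less, Rb1 and Rbl2 rose, and Ccnd2, Ccnd3 and Cdk6 did not pass the test. The median log2 fold change of the 10 genes was -0.28, beside 0.07 over all genes tested. For Ccnd1, Ccne1, Ccne2, Cdk2, Rb1 and Rbl2 the DMSO and trametinib libraries did not overlap. The share of all genes tested without overlap was not counted, so lack of overlap only describes these genes.

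**Figure D1:**
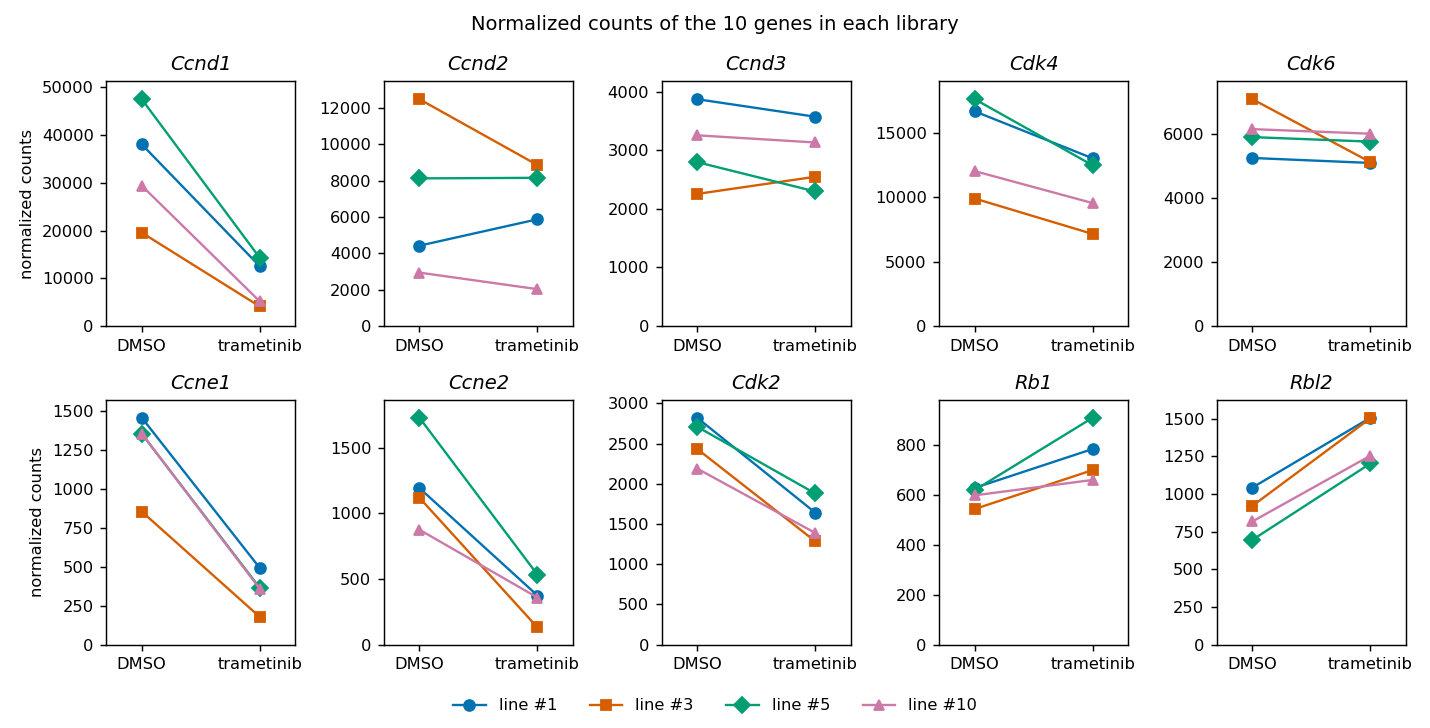
Normalized counts (y axis, linear from 0) of the 10 genes with DMSO and with trametinib (x axis); each line joins the 2 libraries of a cell line, and there are no error bars since each point is 1 library. Ccnd1, Ccne1, Ccne2, Cdk2 and Cdk4 fall in 4 of 4 lines, Rb1 and Rbl2 rise in 4 of 4, and the lines of Ccnd2 and Ccnd3 point both ways. Cdk6, which did not pass the test, is also lower in 4 of 4 lines.

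Cyclin D1 was the most abundant of the 10 transcripts with DMSO, both in normalized counts and per length, and it fell in 4 of 4 lines. Ccnd1 lies on chromosome 7 from 144929931 to 144939925 of GRCm38, on the minus strand. In lines #1, #3, #5 and #10 it stood at 38080, 19569, 47532 and 29415 normalized counts with DMSO, and at 12507, 4099, 14280 and 5157 with trametinib. The highest trametinib library, that of line #5, was thus below the lowest DMSO library, that of line #3. In percent of the DMSO level, 32.8, 20.9, 30.0 and 17.5 were left in lines #1, #3, #5 and #10. The log2 fold change was -2.03 (SE 0.16, limma adjusted p = 0.000335). Leaving out each line in turn gave log2 fold changes between -2.17 and -1.87.

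The other D-type cyclins, which bind the same kinases, did not pass the test. Ccnd2, on chromosome 6 from 127125162 to 127152193, had 4421, 12486, 8125 and 2939 normalized counts in the DMSO libraries of lines #1, #3, #5 and #10, and 5875, 8861, 8157 and 2028 in the trametinib libraries. It was thus higher with trametinib in line #1, lower in lines #3 and #10 and nearly level in line #5. Its log2 fold change was -0.15 with a 95% interval from -0.55 to 0.24 (limma adjusted p = 0.466). Ccnd3, on chromosome 17 from 47505051 to 47599691, had 3873, 2255, 2799 and 3257 in the DMSO libraries and 3574, 2548, 2298 and 3134 in the trametinib libraries, higher with trametinib in line #3 alone. Its log2 fold change was -0.07 with a 95% interval from -0.30 to 0.16 (limma adjusted p = 0.573), and its sign turned with libraries rescaled to equal totals and with quantile normalization. Quantile normalization also turned the sign of Ccnd2. Exons of Ccnd3 overlap those of Bysl on the other strand, which fell from 3090 ± 250 to 1549 ± 392 normalized counts (SD, n = 4 lines), and whether reads of Bysl were counted for Ccnd3 was not tested.

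Relative to Ccnd1, both other D-type cyclins therefore gained. The log2 ratio of Ccnd2 to Ccnd1 rose with trametinib by 2.02, 1.76, 1.74 and 1.98 in lines #1, #3, #5 and #10, a mean of 1.87 ± 0.14 (SD, n = 4 lines). For Ccnd3 against Ccnd1 the rise was 1.49, 2.43, 1.45 and 2.46, a mean of 1.96 ± 0.56 (SD, n = 4 lines). Each was above 0 in 4 of 4 lines (two-sided exact permutation of signs, p = 0.125 each, the smallest p that 4 lines allow, and 0.156 when adjusted over the 5 pairs of genes compared). The rise of Ccnd2 over Ccnd1 was of similar size in the 4 lines although Ccnd2 itself moved in different directions.

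Levels of different genes were compared per kb of the longest principal transcript in GENCODE M21. On this scale, Ccnd1 made up 80.1%, 63.3%, 83.0% and 79.7% of the summed D-type cyclin level with DMSO in lines #1, #3, #5 and #10, and 56.1%, 29.6%, 61.6% and 43.3% with trametinib. The share of Ccnd3 was 8.65% to 15.6% with DMSO and 17.6% to 46.6% with trametinib, and that of Ccnd2 was 4.70% to 23.8% and 10.1% to 37.8%, each higher with trametinib in 4 of 4 lines. With trametinib, Ccnd2 was the largest D-type cyclin in line #3 at 37.8%, Ccnd3 in line #10 at 46.6%, and Ccnd1 in lines #1 and #5. With the union of all exons as length, Ccnd1 was instead the largest in line #10, at 65.7% against 21.4% for Ccnd3. Ccnd2 stayed the largest in line #3, at 44.8%. The share of Ccnd3 with that length was 2.83% to 5.36% with DMSO and 6.29% to 21.4% with trametinib. The summed D-type level was 46.9%, 44.8%, 40.4% and 32.2% of that with DMSO in lines #1, #3, #5 and #10. With exon-union lengths, it was 41.0%, 36.6%, 36.9% and 24.1%, and Ccnd1 took 85.5% with DMSO and 63.0% with trametinib on average, against 76.5% and 47.7% with the transcript length.

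**Figure D2:**
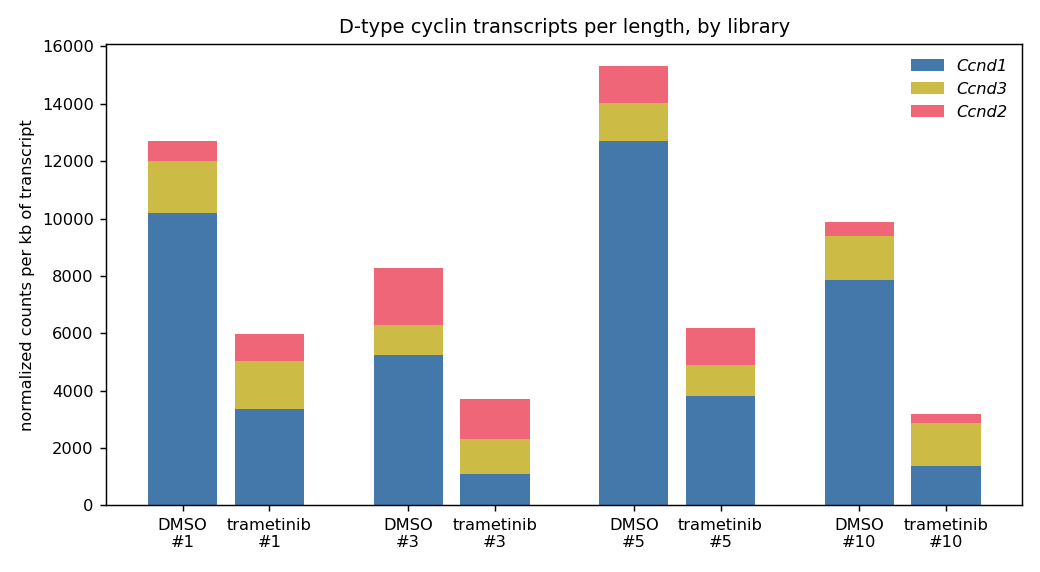
Level of the D-type cyclins in normalized counts per kb of transcript (y axis, from 0) in each of the 8 libraries (x axis), stacked by gene, with no error bars since each bar is 1 library. The Ccnd1 part shrinks in each line, to between 29.6% and 61.6% of the bar with trametinib, while the Ccnd2 and Ccnd3 parts take up more of it.

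The kinases of the D-type cyclins changed little in comparison. Cdk4, on chromosome 10 from 127063534 to 127067920, had 16666, 9897, 17610 and 12026 normalized counts in the DMSO libraries of lines #1, #3, #5 and #10 and 13013, 7143, 12469 and 9540 in the trametinib libraries. The groups overlapped, since lines #1 and #5 stood above lines #3 and #10 with either treatment, but Cdk4 was lower with trametinib in 4 of 4 lines. Its log2 fold change was -0.41 (SE 0.08, limma adjusted p = 0.00569). Without the block the adjusted p was 0.248, and with quantile normalization it was 0.0703. Exons of Cdk4 overlap those of Tspan31 on the other strand, which rose from 2190 ± 172 to 2978 ± 571 (SD, n = 4 lines; log2 fold change 0.43, limma adjusted p = 0.0116).

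Cdk6, on chromosome 5 from 3341485 to 3531008, had 5253, 7091, 5905 and 6154 normalized counts with DMSO and 5098, 5122, 5764 and 6011 with trametinib in lines #1, #3, #5 and #10. It was lower with trametinib in 4 of 4 lines, but nearly level in lines #1, #5 and #10, at 97.0% to 97.7% of DMSO. In line #3 it was at 72.2%. The log2 fold change was -0.15 with a 95% interval from -0.39 to 0.10 (limma adjusted p = 0.273). The log2 ratio of Cdk6 to Cdk4 rose by 0.27 ± 0.19 (SD, n = 4 lines), with 0.0013 in line #3 as the lowest value (two-sided exact permutation of signs, p = 0.125, adjusted 0.156). Per kb of transcript, Cdk4 exceeded Cdk6 in every library, with 6844 ± 1798 against 529 ± 66.1 for DMSO and 5135 ± 1330 against 477 ± 39.9 for trametinib (SD, n = 4 lines).

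Promoters were read from RefSeq (GRCm38.p6), where Ccnd3, Cdk4, Cdk6, Ccne1, Cdk2 and Rbl2 had entries, 7 in all with 2 starts for Ccnd3. The 250 bases before each start were searched on both strands for 6 motifs, namely E2F sites (TTTCCCGC, TTTGGCGC, TTTCGCGC or TTTGCCGC), the E-box CACGTG bound by MYC and related factors, the AP-1 site TGACTCA, the cAMP-response element TGACGTCA, the CHR element TTTGAA and the ETS site CCGGAAGT. The promoters of Cdk4 and Cdk2 are shown because they hold the E-box repeats and the E2F match among the 3 genes that fell and had an entry (Cdk4, Ccne1 and Cdk2), with E-box and E2F letters in capitals. The Cdk4 stretch is chr10:127063285-127063534 on the plus strand, and the Cdk2 stretch is chr10:128705052-128705301 on the minus strand.
Cdk4: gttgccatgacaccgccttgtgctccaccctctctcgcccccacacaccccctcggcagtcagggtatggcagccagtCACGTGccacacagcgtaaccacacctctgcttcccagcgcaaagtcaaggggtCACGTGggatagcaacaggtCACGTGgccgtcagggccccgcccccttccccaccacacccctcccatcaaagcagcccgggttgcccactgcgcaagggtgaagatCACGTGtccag
Cdk2: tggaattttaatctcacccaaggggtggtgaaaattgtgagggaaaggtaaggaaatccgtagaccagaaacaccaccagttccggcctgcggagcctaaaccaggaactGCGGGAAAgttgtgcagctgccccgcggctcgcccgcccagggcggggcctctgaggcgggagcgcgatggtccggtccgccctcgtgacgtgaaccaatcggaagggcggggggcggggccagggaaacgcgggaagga
The 4 E-boxes of Cdk4 begin at -172, -118, -98 and -11 from the start, and CACGTG was in 6.02% of the 32851 RefSeq promoters, that of Cdk6 among them. The E2F match of Cdk2 begins at -140, and an E2F sequence of this kind was in 1.86% of the promoters. The Ccne1 entry and both Ccnd3 entries held none of the 6 motifs in the 250 bases searched. The CHR letters were found in the Rbl2 entry and in 16% of the promoters. The AP-1, cAMP-response and ETS letters, held by 4.46%, 1.55% and 2.88% of promoters, were in none of the 7 entries. These are matches of letters, and binding was not measured.

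The E-type cyclins, which activate CDK2 at the G1/S boundary, both fell in 4 of 4 lines. Ccne1, on chromosome 7 from 38097984 to 38107534, had 1457, 854, 1354 and 1355 normalized counts in the DMSO libraries of lines #1, #3, #5 and #10, and 492, 177, 364 and 358 with trametinib. All trametinib libraries were below all DMSO libraries, and line #3 was lowest with either treatment. The log2 fold change was -1.91 (SE 0.14, limma adjusted p = 0.000244). Ccne2, on chromosome 4 from 11191351 to 11204779, stood at 1194, 1120, 1731 and 876 with DMSO and at 374, 130, 533 and 358 with trametinib. Its groups did not overlap either, and line #3 kept the least, 11.6% of the DMSO level against 30.8% to 40.9% in the other lines. The log2 fold change was -1.94 (SE 0.28, limma adjusted p = 0.00177), and it was -1.55 without line #3.

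The falls of Ccne1 and Ccne2 were compared line by line, in a design that cannot give a p below 0.125. The log2 ratio of Ccne2 to Ccne1 changed by -0.11, -0.83, 0.20 and 0.63 in lines #1, #3, #5 and #10, a mean of -0.03 ± 0.61 (SD, n = 4 lines; two-sided exact permutation of signs, p = 0.875). Without line #3 the mean turned to 0.24. The summed E-type level per kb was 32.9%, 16.5%, 28.7% and 30.8% of DMSO in lines #1, #3, #5 and #10. Ccne1 made up 60.5% ± 8.14 of it with DMSO and 61.1% ± 7.63 with trametinib (SD, n = 4 lines).

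Cdk2, the kinase of the E-type cyclins on chromosome 10 from 128697939 to 128705031, went from 2821, 2434, 2710 and 2189 normalized counts with DMSO to 1641, 1285, 1879 and 1389 with trametinib in lines #1, #3, #5 and #10. It was lower in 4 of 4 lines without overlap between the groups. The log2 fold change was -0.72 (SE 0.10, limma adjusted p = 0.00131), and the DMSO level left ranged from 52.8% in line #3 to 69.4% in line #5. The summed level of the 3 kinases per kb was 68.9% to 78.6% of DMSO, and Cdk4 held 79.8% ± 4.26 of it with DMSO and 81.0% ± 2.94 with trametinib (SD, n = 4 lines).

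**Figure D3:**
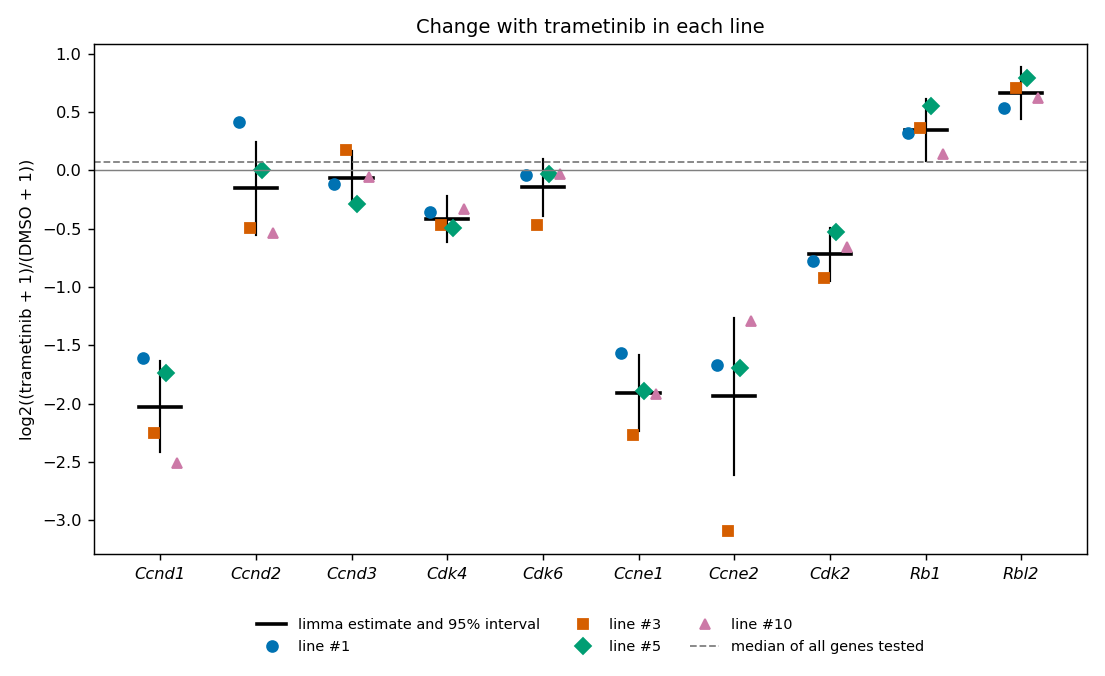
Change with trametinib on the scale log2((trametinib + 1)/(DMSO + 1)) (y axis) for the 10 genes (x axis), with 1 symbol per cell line, the limma estimate as a bar with its 95% interval, and the median of all genes tested as a dashed line at 0.07. Ccnd1, Ccne1 and Ccne2 lie between -1.29 and -3.09 in all 4 lines, while Ccnd2 has lines on both sides of 0, from -0.54 to 0.41.

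Rb1 and Rbl2 were both higher with trametinib. Rbl2, which encodes p130, the pocket protein of quiescent cells, lies on chromosome 8 from 91070057 to 91123844. It rose from 1042, 921, 695 and 817 normalized counts with DMSO to 1507, 1503, 1203 and 1255 with trametinib in lines #1, #3, #5 and #10. The lowest trametinib library stood above the highest DMSO library. The log2 fold change was 0.66 (SE 0.09, limma adjusted p = 0.00161), and the values of the lines ran from 0.53 to 0.79. Rb1, the retinoblastoma gene on chromosome 14 from 73183673 to 73325822, went from 628, 544, 619 and 598 to 784, 700, 910 and 660. It was higher in 4 of 4 lines, least in line #10 at 110% of DMSO and most in line #5 at 147%. Its log2 fold change was 0.34 (SE 0.11, limma adjusted p = 0.0373). The call of Rb1 was lost with any of the 4 lines left out, at an adjusted p of 0.102 without line #1, 0.0509 without line #3, 0.149 without line #5 and 0.0578 without line #10, and without the block at 0.128. Exons of Rb1 overlap those of Lpar6 on the other strand, which rose from 476 ± 98.0 to 965 ± 335 (SD, n = 4 lines; log2 fold change 0.98, limma adjusted p = 0.00107), and its part in the counts of Rb1 was not tested.

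The log2 ratio of Rbl2 to Rb1 rose by 0.21, 0.34, 0.24 and 0.48 in lines #1, #3, #5 and #10, a mean of 0.32 ± 0.12 (SD, n = 4 lines; two-sided exact permutation of signs, p = 0.125, adjusted 0.156). Per kb, Rbl2 held 57.6% ± 4.72 of the sum of both with DMSO and 62.8% ± 5.01 with trametinib (SD, n = 4 lines). The third pocket protein, p107, is encoded by Rbl1, an E2F target, and was singled out after its values were seen. It went the other way, from 1668, 1696, 1647 and 1692 normalized counts to 822, 566, 1192 and 1017 in lines #1, #3, #5 and #10, a change of -0.95 on the log2 scale (SE 0.18, limma adjusted p = 0.00481).

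The 4 lines also differed in the level of these genes irrespective of treatment. In an F test of the lines in the same limma fit, 5 of the 10 genes had an adjusted p under 0.05, against 27.6% of all genes tested. They were Ccnd2 (limma adjusted p = 0.00649), Cdk4 (0.0101), Ccnd1 (0.0134), Ccne1 (0.0250) and Ccnd3 (0.0403). The call of Ccnd3 was lost without line #1, #5 or #10. Ccnd2 spread most, with a highest DMSO library 4.25 times the lowest and line #10 lowest with either treatment. Line #3 had the least Ccnd1, Cdk4 and Ccne1 of the 4 lines with DMSO and with trametinib, and the most Ccnd2. Ccne2, Cdk2, Cdk6, Rb1 and Rbl2 did not pass (adjusted p from 0.0965 to 0.492), and Rb1 had the narrowest spread of DMSO libraries, 1.16 times from lowest to highest. The number of genes called was 3 without line #1, with Ccnd1, Ccnd2 and Cdk4, and 3 without line #10, with Ccnd1, Cdk4 and Ccne1. Without line #3 it was again 5, but Ccne1 was lost (adjusted p = 0.236 in the limma F test) and Ccne2 was called (0.0269).

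Genes around these 10 in the G1/S pathway were counted from lists. Of 17 tested partners, such as other cyclins, activating kinases and the SCF ligase that degrades cell cycle proteins, 12 were lower and 0 higher in limma, and Ccna1 was below the filter. The largest falls were those of cyclin A2, Ccna2, at a log2 fold change of -1.59 (limma adjusted p = 0.00291), and of its kinase Cdk1, at -1.44 (limma adjusted p = 0.00120). Among the 5 partners not called were Cdk7, at 0.09 (limma adjusted p = 0.492), and Mnat1, at -0.03 (limma adjusted p = 0.831), parts of the kinase that activates the CDKs, while its cyclin, Ccnh, was lower in 4 of 4 lines without overlap but just missed the threshold, at -0.31 (limma adjusted p = 0.0503). The list's median was -0.44. Of the 10 E2F and DP factors, 9 were lower and 0 higher, with a median of -0.82, led by E2f2 at -2.33 (limma adjusted p = 0.00214) and E2f8 at -2.17 (limma adjusted p = 0.000311). E2f4, the partner of p130, fell by 0.89 on the log2 scale (limma adjusted p = 0.000838) and was singled out after its values were seen. Of the 5 genes of the MuvB core, 3 were lower and 0 higher, with Lin54 at -1.11 (limma adjusted p = 0.00332) and Lin9 at -0.95 (limma adjusted p = 0.00125).

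All 30 listed E2F target genes of DNA replication were lower and 0 were higher in limma, with a median of -1.45 that ran from -1.08 in line #5 to -2.27 in line #3. Thymidine kinase, Tk1, had the largest fall at -2.16 (limma adjusted p = 0.000654), followed by the replication licensing factor Cdc6 at -1.99 (limma adjusted p = 0.000606). Of the 7 CDK inhibitors, 3 were higher and 2 lower, with a median of 0.25, beside a background of 27.3% higher and 25.6% lower. Cdkn1c, the gene of p57, rose most, by 2.13 (limma adjusted p = 0.00138), from 87.7, 6.54, 32.1 and 8.24 normalized counts to 330, 57.3, 128 and 29.3 in lines #1, #3, #5 and #10. Cdkn2b, the gene of p15, a direct inhibitor of CDK4 and CDK6, rose by 0.55 (limma adjusted p = 0.00664), while the INK4 genes Cdkn2d at -0.80 (limma adjusted p = 0.0118) and Cdkn2c at -0.54 (limma adjusted p = 0.0139) fell. Cdkn2a, the remaining INK4 gene, was not called, at 0.18 (limma adjusted p = 0.301), and was singled out after its values were seen. Cdkn1a, the gene of p21, was the remaining inhibitor called higher, at 0.54 (limma adjusted p = 0.0446), singled out after its values were seen. It was higher in 3 of 4 lines and at 91.9% of DMSO in line #5, and its adjusted p reached 0.167 with a line left out. Without the block, none of the 7 was called in either direction, and without line #10 the number called lower was 0.

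**Figure D4:**
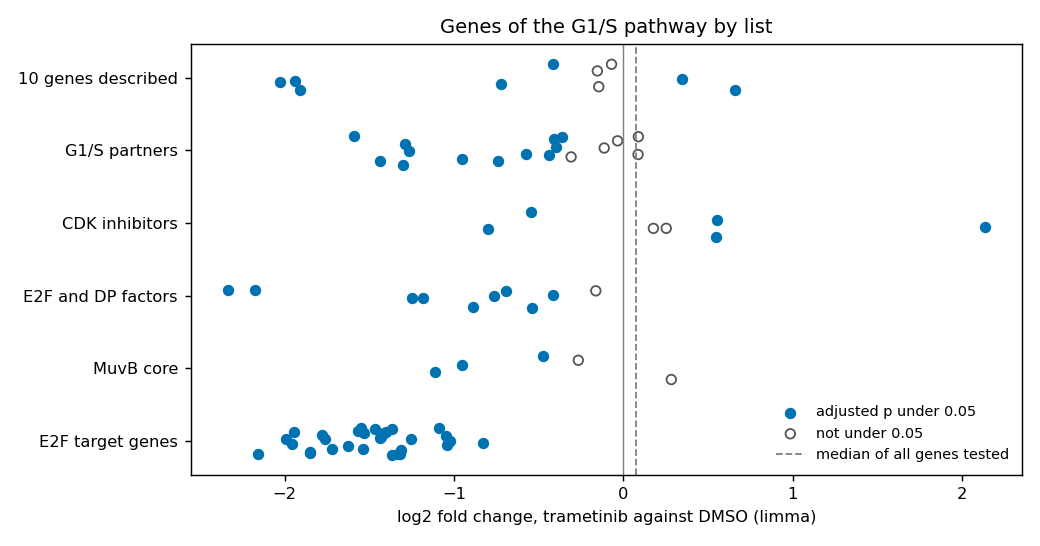
Log2 fold change with trametinib from limma (x axis) for the 10 genes and the genes of 5 pathway lists (y axis), with filled points for genes at an adjusted p under 0.05, open points for the rest and the median of all genes tested as a dashed line at 0.07; points are spread vertically only to keep them apart. All 30 E2F target genes and 9 of 10 E2F and DP factors lie to the left as filled points, while the CDK inhibitors lie on both sides.

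The genes whose level followed each of the 10 most closely were found by the Pearson correlation of log2(value + 1) over the 8 libraries, among all genes tested. Since the libraries share lines and treatments, these values only describe the pattern. Ccnd1 was closest to Bccip (r = 0.994) and Myc (r = 0.990), Ccne1 to Prpf3 (0.998) and Gar1 (0.995), and Ccne2 to Chchd4 (0.993) and Rpf2 (0.993). Cdk4 was closest to Pcnp (0.993) and Pafah1b2 (0.992), and Cdk2 to Nomo1 (0.995) and Gm24727 (0.993). Rbl2 was closest to Atp13a2 (0.996) and Kif1a (0.992), and Rb1 to 9130023H24Rik (0.994) and Rbfox2 (0.987). For the genes that did not pass the test, the nearest were Tagap1 (0.969) and AC153525.1 (0.947) for Ccnd2, Ppm1a (0.974) and Lrrc42 (0.960) for Ccnd3, and Zfp81 (0.956) and Timm21 (0.949) for Cdk6.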

How the data were processed

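RNA of 4 DMSO and 4 trametinib libraries was sequenced by the authors (stranded mRNA kit, polyA RNA). The authors deposited normalized counts, a signal per gene symbol scaled between libraries. The submitters' processing notes name CASAVA 2.17, Salmon 0.12, DESeq2 1.18 and the build mm10, without their roles. Whole reads were not recovered, since between 51.7% and 68.4% of low values lay within 0.05 of a whole step, so no count test was run.

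Values were transformed as log2(value + 1) and fitted with limma 3.58.1 (R 4.3.3; lmFit, eBayes with trend) with treatment and cell line, genes with a mean of at least 10 being kept. The block rests on the labels, which number both libraries of a line alike. Their deviations from the treatment means correlated at 0.63 to 0.72 across genes. P-values were adjusted by Benjamini-Hochberg over all 15888 genes tested. For pairs of genes, the signs of the 4 differences were permuted exactly (scipy 1.17.1). The fit was tested on simulated data, where it recovered 186 of 194 changed genes among 15723 and made 12 false calls. In that simulation few genes changed, and each changed by the same amount in all lines. It therefore checks the code and gives no error rate for these data. Gene positions and lengths come from GENCODE M21 (GRCm38), matched by symbol, and promoters from RefSeq. Of the 10 genes, 9 have exons that overlap a gene on the other strand, and whether counting used strand is not given in the sources used here.

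The 10 genes and the lists were chosen with earlier results of these data known. Named are the 10 genes, from each list up to 2 called genes with the largest fall and 2 with the largest rise, and for each of the 10 the 2 most correlated genes. Others are said to be singled out, apart from overlapping genes, marker genes, and Cdk7, Mnat1, Ccnh and Epha4, which were picked after their values were seen. Alternatives were pseudocounts of 0.1 and 5, equal totals, quantile normalization, median centring, no filter or one at 50, eBayes without trend or robust, no block, a minimum change of 2-fold (limma treat) and leaving out each line. The exon-union length was chosen after seeing the data. A further allele that all 8 libraries share is not reported here.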

Additional observations from a re-analysis of the deposited data

Results flagged for a closer look

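Among 30 sets of 4 libraries or lines, 2 held a value far from the other 3, and about 1.5 would come by chance. Cdk6 changed by -0.47 on the log2 scale in line #3, against -0.04 to -0.03 in the other lines. Ccne1 stood at 854 normalized counts with DMSO in line #3, against 1354 to 1457 in the others.

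Lines moved in opposite directions for 2 genes, and with 1 library per line and treatment the difference was not tested. For Ccnd2 the highest and lowest lines, #1 and #10, were 0.95 apart on the log2 scale, from -0.54 to 0.41. For Ccnd3 lines #3 and #5 were 0.46 apart, from 0.18 to -0.28.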

How the results depend on the processing

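Of 150 log2 fold changes of the 10 genes over 15 alternatives, 130 kept direction and side of the threshold, 16 lost the call and 4 changed sign. The sign changes were those of Ccnd2 (0.0032) and Ccnd3 (0.044) with quantile normalization and of Ccnd3 with equal totals (0.058) and without line #5 (0.0016), none of them called. With each line left out, Ccnd3 ranged from -0.15 to 0.0016. The 2 genes that were higher became 1 with quantile normalization, median centring, no filter, eBayes without trend or no replicate block, 0 with a minimum change of 2-fold, and 1 to 1 with each line left out. The lost gene was Rb1 in each case, and with the 2-fold minimum Rbl2 too. The 5 lower genes became 2, Ccnd1 and Ccne1, with that minimum. The call of Cdk4 was lost with the 2-fold minimum, quantile normalization and no block, as those of Ccne2 and Cdk2 were with the 2-fold minimum.

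With the 2-fold minimum, lower calls numbered 0 among the partners, 1 among the E2F and DP factors, 0 in the MuvB core, 4 among the E2F targets and 5 in the MAPK check. Higher calls among the CDK inhibitors, 3, became 2 with quantile normalization, median centring, no filter, no trend and without line #1 or #10, and 0 with no block and the 2-fold minimum. Epha4 of the MAPK check was called higher with a pseudocount of 5, equal totals, quantile normalization, the filter at 50 and without line #3.

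Over all genes, 4341 were higher and 4075 lower, against 2205 and 2347 without the replicate block (the pairing by cell line), and 557 and 176 with the 2-fold minimum. Higher genes were 51.6% of the calls, and 61.9% with equal totals, which moved the median of all genes by 0.13, as quantile normalization did by -0.10. Genes that differed between lines numbered 4391, against 2862 without a filter, 1879 without trend and 2028 to 4558 with each line left out. Among the 10 they numbered 5, against 2 without trend and 3 to 5 with each line left out. The genes lost without trend were Ccnd1, Ccne1 and Ccnd3 (adjusted p = 0.0564, 0.0675 and 0.112 in the limma F test). Ccnd3 was also lost with quantile normalization, median centring and no filter. The log2 ratio of Ccne2 to Ccne1 changed by -0.03, and by between -0.25 and 0.24 with each line left out. The 2-fold minimum tests against a larger change by construction. For the other settings the cause was not tested. The lowest value of these genes corresponded to an estimated 138 reads, and the part of depth was not tested.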
